A study of Mus musculus with 2 samples.

Results

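The cells described here are Ly6c2 monocytes of MC38 tumors, monocytes that carry transcripts of the classical, inflammatory kind. They were picked by their own transcripts in droplet-based single-cell RNA sequencing, in which each captured RNA molecule bears a unique molecular identifier (UMI). A barcode was kept as a cell when it had no fewer than 500 genes and no more than 20% of its UMIs from mitochondrial genes. A kept cell was a member when it held at least 2 UMIs of Ly6c2, at least 1 of Ccr2, Chil3 and F13a1 together, and at least 0.1% of its UMIs from Tyrobp and Fcer1g. Members also had under 0.1% of UMIs from C1qa, C1qb and C1qc, under 0.05% from further macrophage transcripts, under 1% from S100a8 and S100a9, and none from Cd3d, Cd3e or Cd3g. Of 14039 kept cells of the Untreated library 193 were members, and of 13963 kept cells of the MSA-2 library 283 were.

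MC38, a mouse colon carcinoma line, was grown under the skin of C57BL/6 mice. The tumors received 3 injections, 3 days apart, of MSA-2 or of the control. MSA-2 is a small-molecule, non-nucleotide agonist of STING. The labels call the control Untreated, and the description of the series gives it as saline with 10% DMSO. Tumors of 3 mice were pooled into 1 library per condition, so no spread between animals could be measured and no p-value is given. The 95% intervals are exact and cover counting error only. The libraries held 198135335 UMIs (Untreated) and 204387165 UMIs (MSA-2), and the members' own UMIs summed to 930841 and 1550290. Members had a median of 4021 UMIs and 1708 genes in Untreated, and 4315 UMIs and 1704 genes in MSA-2. Levels are given as CPM, a gene's part of the members' summed UMIs scaled to the same total in each library, and where 2 values are given together the first is of Untreated and the second of MSA-2. The libraries had 53 barcodes in common. None of these was a member in both, and 1 member of MSA-2 had its barcode in Untreated.

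Classical monocytes leave the bone marrow through the chemokine receptor CCR2, circulate with high surface Ly6C, and enter inflamed tissue and tumors, where they can turn into macrophages or dendritic-like cells. STING is an adaptor in the endoplasmic reticulum that is activated by the cyclic dinucleotide made by the DNA sensor cGAS, or by an agonist. It acts through the kinase TBK1 and the factor IRF3 to start transcription of type I interferon genes, and it also activates NF-kB, which drives cytokine and chemokine genes. Secreted type I interferon binds the receptor chains IFNAR1 and IFNAR2 and induces interferon-stimulated genes in the same and in neighbouring cells.

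The genes used to pick the members are given as a description only. Ly6c2, which has a close copy in Ly6c1 with which reads could be shared, stood at 1579 CPM in Untreated and 1619.7 in MSA-2, with a median of 6 and 7 UMIs per member. At the edge of the rule, 41 and 43 members held exactly 2 Ly6c2 UMIs, and 212 and 218 cells failed the rule by Ly6c2 alone. The trio that served as the second condition is described in the same way. Ccr2, the receptor for CCL2, stood at 380.3 CPM in Untreated and 134 in MSA-2. Chil3, a chitinase-like protein of monocytes and macrophages, stood at 572 CPM in Untreated and 1302 in MSA-2, and F13a1, a coagulation factor subunit, at 79.5 CPM in Untreated and 416 in MSA-2. Ccr2 was the only 1 of the trio in 67 members (34.7%) of Untreated and in 21 (7.42%) of MSA-2. Chil3 and F13a1 without Ccr2 were found in 10 (5.18%) and 73 (25.8%), and all 3 genes in 24 (12.4%) and 65 (22.97%). Ccr2 and Chil3 without F13a1 were found in 55 (28.5%) and 25 (8.83%). Each combination of the trio was found in both libraries, in different shares.

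Other limits were approached from both sides. The members nearest to the Tyrobp and Fcer1g minimum held 0.105% (Untreated) and 0.101% (MSA-2), and the nearest cells that failed it alone held 0.0978% and 0.0966%; 20 and 101 cells failed there. For C1q the last members held 0.09997% and 0.0984%, the first cells outside 0.101% and 0.104%, and 210 and 142 cells failed. For S100a8 and S100a9 the highest member held 0.0332% in Untreated, where no cell failed by this alone, and 0.975% in MSA-2, where the first cell outside held 1.08% and 74 failed. A Cd3 UMI alone kept out 17 cells and 1 cell.

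Genes that the rule did not use gave a mixed view of the monocyte name. Lyz2 (lysozyme) stood at 5386 CPM in Untreated and 2129.9 in MSA-2, Plac8 at 3622 CPM in Untreated and 4820.4 in MSA-2, and Ms4a6c at 785 CPM in Untreated and 607 in MSA-2, beside 94.6 and 29.98 CPM (Lyz2), 283 and 932 CPM (Plac8) and 16.01 and 14.6 CPM (Ms4a6c) in T cells of the same libraries. Csf1r, a receptor of monocytes and macrophages, was found in 59.6% and 27.6% of members. At least 3 UMIs of T, NK, B, tumor, fibroblast and endothelial cell genes together were held by 68 and 126 members. Either these or at least 2 genes of a plasmacytoid dendritic cell list were held by 118 and 221. Within the 68 and 126, 12 members of Untreated (6.22%) and 8 of MSA-2 (2.83%) carried at least 3 UMIs of a list of 15 T and NK cell genes. The 12 of Untreated held 99.0% of the Gzmc UMIs (145.6 per cell against 0.0939 in the other members) and all UMIs of Ncr1, an NK cell receptor. They had 0.583 Lyz2 UMIs per cell, against 27.7 in the other 181, and none of Csf1r. The 8 of MSA-2 had 4.375 Lyz2 UMIs per cell, against 11.88 in the other 275, with Csf1r in 2 cells and Chil3 in 3. The 12 and 8 members carried transcripts of lymphoid cells, and some results below are given also without them. UMIs of Y-linked genes and none of Xist were seen in 99 and 111 members, the reverse in 0 and 1.

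Ly6c2 monocytes made up a larger share of the MSA-2 library under the rule as stated. The methods say that cells were sorted before capture and name no marker, so the share is of cells in the library and not of the tumor. They were 1.37% of kept cells in Untreated (interval 1.19% to 1.58%) and 2.03% in MSA-2 (1.7995% to 2.27%), a 1.47-fold difference (log2 ratio 0.56, interval 0.29 to 0.83). Among myeloid cells, taken as cells past the Tyrobp and Fcer1g minimum without Cd3, they were 4.12% of 4688 (3.57% to 4.73%) and 5.95% of 4754 (5.30% to 6.66%), a 1.45-fold difference (log2 ratio 0.53, 0.26 to 0.80). The remainder of the myeloid compartment also differed. Macrophages with C1q numbered 3212 and 913, and neutrophils 20 and 2480. Over kept cells that were not neutrophils the share was 1.38% and 2.46%, a log2 ratio of 0.84.

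The direction of the share depended on how the cells were defined. With Ccr2 required in place of the trio, 157 and 124 members were left and the log2 ratio was −0.33 over kept cells and −0.36 over myeloid cells. Without the members that held markers of other cell types (at least 3 UMIs of T, NK, B, tumor, fibroblast or endothelial cell lists, or 2 genes of a plasmacytoid dendritic cell list), 75 and 62 were left and the ratios were −0.27 and −0.29. That condition also removed cells with Bst2, which is an interferon-stimulated gene as well as a marker of plasmacytoid dendritic cells. Without members that held any UMI of the neutrophil genes Retnlg, G0s2, Mmp8, Hdc or Cxcr2, a condition chosen after seeing the data, 183 and 99 were left and the ratios were −0.88 and −0.91. Of the 18 alternatives for the share of kept cells, 3 lay below 0 and the other 15 lay above 0, up to 0.93. With Ccr2 required and without markers of other cell types the interval over kept cells included 0, and without neutrophil UMIs it lay below 0. Over myeloid cells the highest was 1.48, for cells of no fewer than 1000 genes and no more than 10% of UMIs from mitochondria. The direction of the share is therefore given only for the rule as stated.

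**Figure D1:**
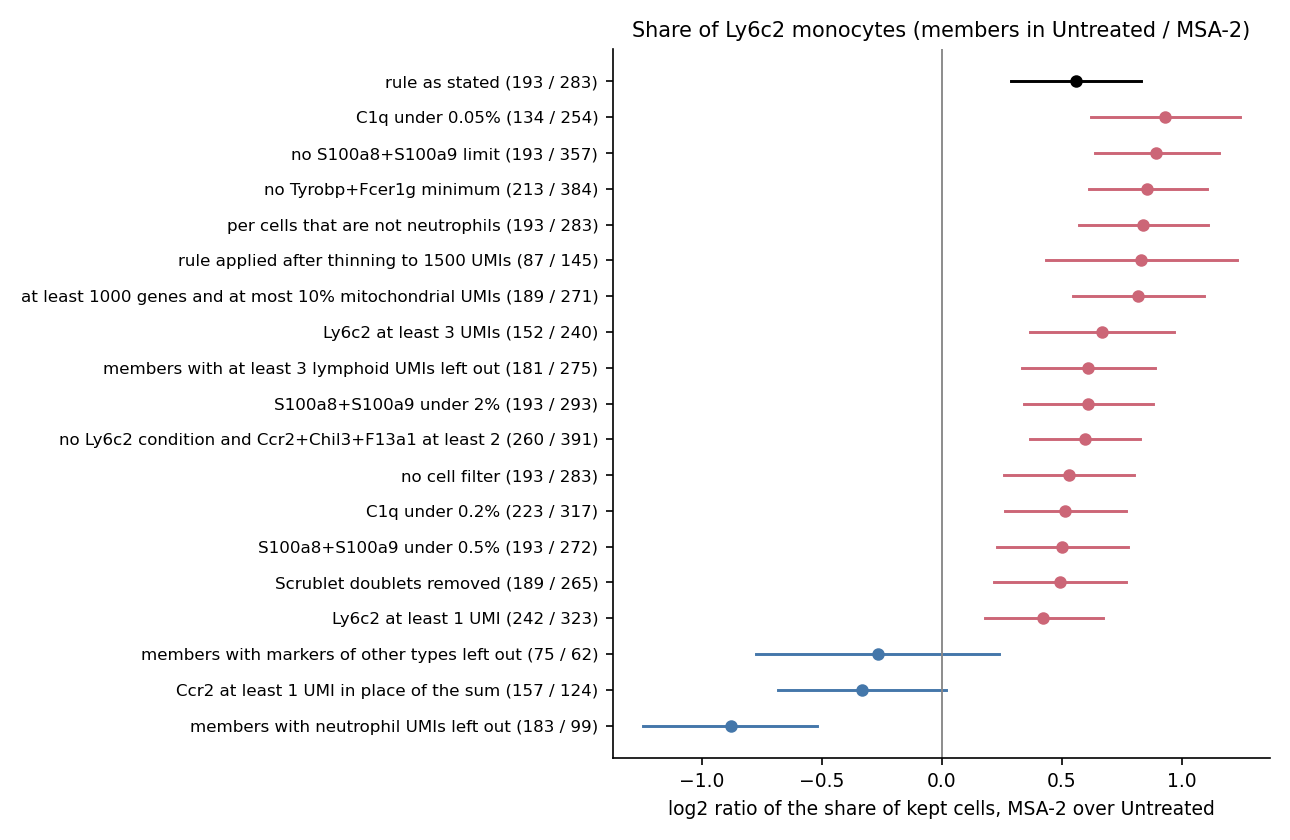
Log2 ratio of the share of Ly6c2 monocytes among kept cells, MSA-2 over Untreated, under the rule as stated (black point, 0.56) and under 18 alternatives, with 95% intervals as lines and the number of members in Untreated and MSA-2 in each label. Red points lie above 0 and blue points below 0, the lowest at −0.88 where members with neutrophil UMIs were left out.

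Gene levels were compared for the 8591 genes with at least 20 UMIs in both sums together, with 1 CPM added to each level. A gene past 2-fold was counted as higher or lower. Of all genes tested 821 (9.56%) were higher in MSA-2 and 765 (8.9%) were lower, and the median log2 ratio was −0.17. Scaling by TMM factors added 0.21 to every gene and put the median at 0.03, with 1086 genes higher and 458 lower. Whether a gene within 0.21 of a 2-fold limit was counted thus depended on the scaling, in the lists too. Giving each cell equal weight put the median at −0.24, with 911 genes higher and 1101 lower. The main list medians are therefore given also relative to the median of all genes. The numbers of higher and lower genes were 1423 and 1316 with a minimum of 5 UMIs, 395 and 221 with 100 UMIs, and 525 and 320 with 10 CPM added. Without members with markers of other cell types 408 were higher, and without Scrublet doublets 1185 were lower. The medians of the macrophage list and of the immediate-early list took the other sign with equal weight per cell.

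Interferon beta ranked among the 15 genes furthest to the higher side. Ifnb1 (ENSMUSG00000048806), the single gene for interferon beta, had 9 UMIs in the members of Untreated and 3180 in those of MSA-2. This was 9.67 CPM (4.42 to 18.4) and 2051 CPM (1980 to 2124), a 212-fold difference (log2 ratio 7.73, 95% interval 6.802 to 8.86). At least 1 Ifnb1 UMI was found in 7 of 193 members (3.63%, 1.47% to 7.33%) and in 246 of 283 (86.9%, 82.4% to 90.6%). The median member had 0 and 9 UMIs, and the highest 3 and 52. After each cell was thinned to 1500 UMIs, which left out 4 and 7 shallower members, the share with a UMI was 2.12% and 77.5%. T cells (at least 2 Cd3 UMIs and under 0.05% from Tyrobp and Fcer1g) gauge RNA free in the droplets. They numbered 1222 and only 143, or 1195 and 139 after thinning, so their percentages in MSA-2 rest on few cells. They had a median of 3685 and 5399 UMIs, and their share with Ifnb1 was 1.96% (1.26% to 2.91%) and 16.8% (11.1% to 23.9%) before thinning and 0.418% and 5.76% after it. The share of members was thus above that of T cells at equal depth in MSA-2. In the thinned members of MSA-2 the quartiles were 1, 3 and 6 UMIs, and 62 of 276 held none. Under the alternatives the log2 ratio of Ifnb1 lay between 6.99 and 9.71, the highest when the rule was applied after thinning, and it was 9.47 with at least 3 Ly6c2 UMIs.

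In MSA-2 the members' part of this transcript was larger than their part of the cells, and in Untreated it was smaller. They were 2.03% of the kept cells of MSA-2 and had 14.8% (14.3% to 15.3%) of its 21490 Ifnb1 UMIs. In Untreated they were 1.37% of cells and held 0.273% (0.125% to 0.518%) of 3292, where cells with C1q held 72.2%. Ifnb1 stood at 993 CPM in C1q macrophages of MSA-2, at 142 CPM in neutrophils and at 23.5 CPM in T cells. Whether the members differed from these cells was not tested.

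The interferon alpha genes are a family of near-identical copies, so the split of reads among them is uncertain and the family was summed. Its 14 genes had no UMI in the members of Untreated and 753 in those of MSA-2, spread over 9 of the genes. This was 0 CPM (up to 3.96) and 486 CPM (452 to 522), the second being 151 times a floor of 3 counts over the group. Cells with a UMI numbered 0 of 193 and 150 of 283 (53.0%, 47.0% to 58.9%). Of these 150 cells, 146 also held Ifnb1. Another 100 held Ifnb1 alone, 4 interferon alpha alone and 33 neither. The members held 24.5% (22.98% to 26.05%) of the 3075 interferon alpha UMIs in kept cells of MSA-2. T cells of MSA-2 also held these transcripts, at 147 CPM and in 36.4% of cells, against 65.0 CPM in C1q macrophages. The gene of the family with most UMIs, Ifna2, stood at 0 and 249.6 CPM (lower bound of the log2 ratio 5.97). It was found in 0% and 21.4% of thinned members beside 0.0837% and 11.5% of thinned T cells. Ifna16 stood at 0 and 101.9 CPM and Ifna4 at 0 and 79.3 CPM. Ifna9 and Ifna12 had no UMI in the members of either library.

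Of the 4 receptor chains 3 were past 2-fold lower, and Ifnar2 was not. Ifnar1 was only just past it, and under TMM it was within 2-fold. Ifnar1 stood at 122 CPM in Untreated and 60.6 in MSA-2 (log2 ratio −1.01, 95% interval −1.42 to −0.61) and Ifnar2, the other chain for type I interferon, at 329 CPM in Untreated and 175 in MSA-2 (−0.91). Ifngr1 and Ifngr2, the chains for interferon gamma, stood at 245 and 79.3 CPM (−1.63) and 142 and 49.7 CPM (−1.51). Ifng itself, made by lymphoid cells, had 9 and 18 UMIs. The 4 receptor chains thus lay below the all-gene median, and Ifnb1 lay above it. Of the 13 genes of this list 10 were tested, 5 higher and 3 lower, and 4 of the 5 had no UMI in Untreated. These 5, Ifnb1 and 4 interferon alpha genes, met the UMI minimum through their UMIs in MSA-2. A gene without a UMI in Untreated could only be counted as higher. The counts are therefore a description only, and the side of the ligands as a set was not tested.

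**Figure D2:**
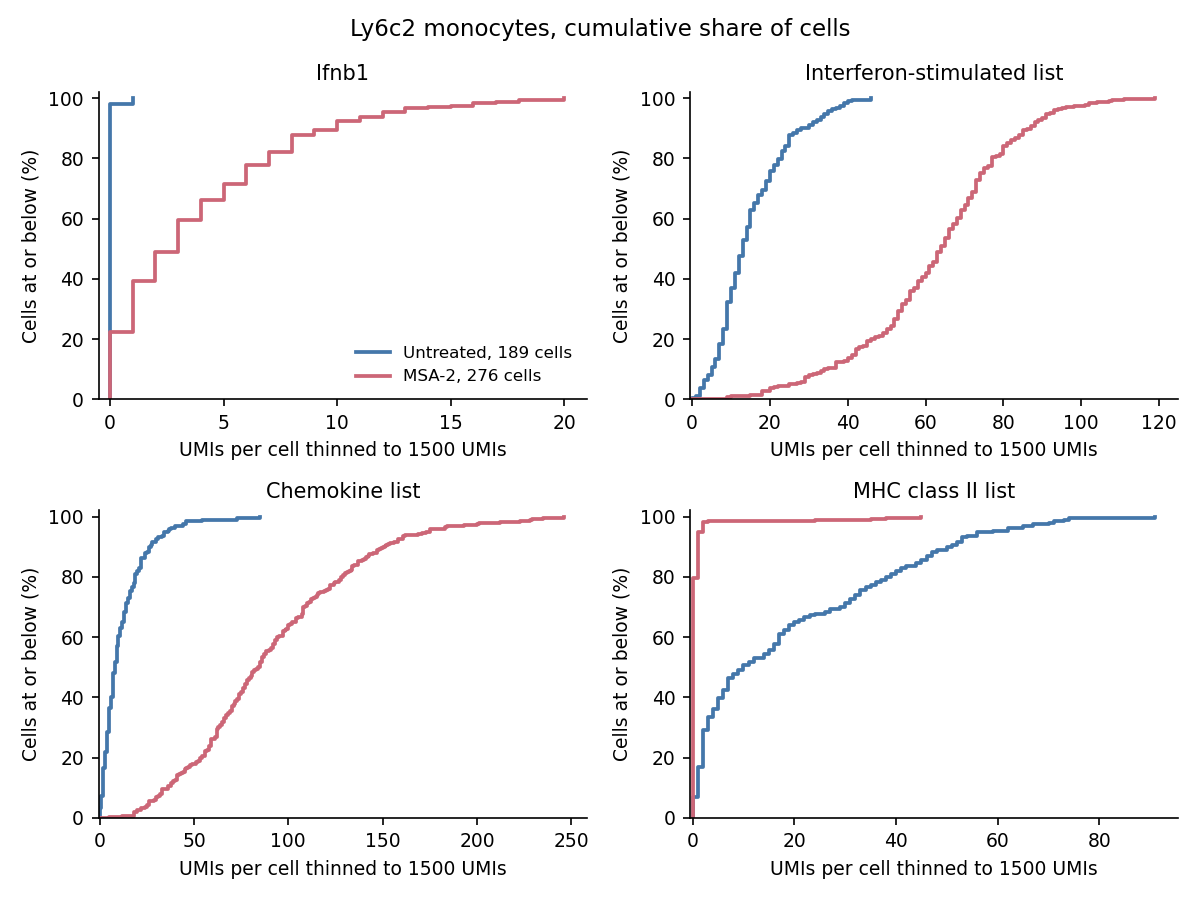
Cumulative share of Ly6c2 monocytes (vertical axis, percent of cells) at or below a number of UMIs per cell after thinning to 1500 UMIs, for Ifnb1 and for the summed interferon-stimulated, chemokine and MHC class II lists in Untreated (189 cells) and MSA-2 (276 cells). The median of the interferon-stimulated list lay at 13 and 64 UMIs, that of chemokines at 8 and 84.5, and that of MHC class II at 10 and 0.

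Promoters of 5 genes that were higher in MSA-2 are shown for the letters of 2 motifs, since type I interferon acts through interferon response elements and STING also activates NF-kB. The windows run from 250 bases before to 50 after the start of the gene and come from RefSeq with GRCm38.p6. The interferon motif was searched as GAAANNGAAA and, on the other strand, TTTCNNTTTC, and was present in 943 of 27025 promoters (3.49%). Of 36 matched genes of the interferon-stimulated list 20 held it (55.6%), as did all 9 matched guanylate-binding and immunity GTPase genes and the 7 interferon alpha genes of the ligand and receptor list. It was present in 1 of 13 matched chemokine genes (Cxcl10), in 0 of 12 cytokine genes and in 0 of 5 MHC class II genes. The NF-kB motif, GGGANTTTCC or GGAAANTCCC, was present in 104 of all promoters (0.385%), in 3 of the 13 chemokine genes (Cxcl1, Cxcl2 and Cxcl3) and in 2 of the 12 cytokine genes (Il6 and Csf1). The Ifnb1 window held neither run of letters. The promoters, which run in the direction of the gene, are those of Ifna4 (chr4:88841566-88841865, plus strand), Ifit1 (chr19:34640639-34640938, plus strand), Rsad2 (chr12:26456403-26456702, minus strand) and Cxcl10 (chr5:92348840-92349139, minus strand), with the interferon motif in capitals, and of Il6 (chr5:30012864-30013163, plus strand), with the NF-kB motif in capitals. A match is a run of letters and not a measured binding site, and the absence of a match says nothing about the factor.
Ifna4: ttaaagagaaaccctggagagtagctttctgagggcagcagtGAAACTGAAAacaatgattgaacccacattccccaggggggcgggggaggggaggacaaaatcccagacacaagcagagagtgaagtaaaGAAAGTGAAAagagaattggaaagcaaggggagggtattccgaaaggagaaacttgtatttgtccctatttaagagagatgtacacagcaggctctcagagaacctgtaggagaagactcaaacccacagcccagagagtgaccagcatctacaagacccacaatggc
Ifit1: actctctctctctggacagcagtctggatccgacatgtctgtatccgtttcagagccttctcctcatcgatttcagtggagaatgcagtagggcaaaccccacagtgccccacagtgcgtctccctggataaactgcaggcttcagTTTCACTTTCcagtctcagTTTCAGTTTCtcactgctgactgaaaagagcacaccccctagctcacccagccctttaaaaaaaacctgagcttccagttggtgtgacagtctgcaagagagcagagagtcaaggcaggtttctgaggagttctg
Rsad2: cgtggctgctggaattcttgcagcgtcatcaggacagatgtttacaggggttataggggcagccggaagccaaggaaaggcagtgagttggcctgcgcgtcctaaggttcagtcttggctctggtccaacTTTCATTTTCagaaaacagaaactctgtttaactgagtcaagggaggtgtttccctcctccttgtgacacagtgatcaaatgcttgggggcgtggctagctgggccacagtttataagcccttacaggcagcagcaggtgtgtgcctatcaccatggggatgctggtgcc
Cxcl10: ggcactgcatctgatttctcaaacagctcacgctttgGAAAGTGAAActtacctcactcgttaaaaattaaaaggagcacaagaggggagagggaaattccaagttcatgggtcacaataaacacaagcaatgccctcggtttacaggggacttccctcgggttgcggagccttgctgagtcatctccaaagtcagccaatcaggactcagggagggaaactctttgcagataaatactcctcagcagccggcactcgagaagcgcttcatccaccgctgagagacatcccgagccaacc
Il6: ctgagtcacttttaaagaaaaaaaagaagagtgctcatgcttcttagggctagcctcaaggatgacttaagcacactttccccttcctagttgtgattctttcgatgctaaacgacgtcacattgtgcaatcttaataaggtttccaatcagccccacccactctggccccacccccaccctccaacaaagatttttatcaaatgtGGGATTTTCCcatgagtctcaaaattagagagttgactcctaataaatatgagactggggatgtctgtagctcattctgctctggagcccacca

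Interferon-stimulated genes were higher as a list. All 44 were tested, 35 were past 2-fold higher and none was past 2-fold lower, with a median log2 ratio of 1.92, or 2.08 relative to all genes. Their summed level was 9066 and 35460 CPM, 3.91-fold, beside 3613 and 12354 CPM in T cells. The most abundant gene was Ifitm3 in Untreated and Rsad2 in MSA-2. Rsad2, which encodes the antiviral enzyme viperin, stood at 338 CPM in Untreated and 5259 in MSA-2 (log2 ratio 3.96, 95% interval 3.795 to 4.12), and its share of thinned cells was 26.5% and 98.2%, beside 13.9% and 64.03% of T cells. Ifit1, which binds viral RNA, stood at 97.8 CPM in Untreated and 2681 in MSA-2 (4.78, 95% interval 4.48 to 5.09). Isg15, a ubiquitin-like modifier, stood at 334 CPM in Untreated and 2538 in MSA-2 (2.93, 95% interval 2.76 to 3.097), with a share of thinned cells of 30.7% and 94.6% and of 30.1% and 61.9% in T cells. Their levels in T cells were 148 and 923 CPM (Rsad2), 129 and 1226 CPM (Ifit1) and 251 and 827 CPM (Isg15), so these 3 genes were also higher in T cells of MSA-2 than in those of Untreated.

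Ifih1, the RNA sensor MDA5, stood at 147 and 1644 CPM, Oasl1 at 339 and 2430.5 CPM, and Cmpk2, a mitochondrial nucleotide kinase, at 12.9 and 459 CPM. Slfn4, a Schlafen gene of myeloid cells, stood at 82.7 and 1269 CPM and was in 0.167% and 10.8% of thinned T cells. Ifit2 and Ifit3 stood at 96.7 and 1533 CPM and 212 and 1833 CPM, the latter with a close copy, Ifit3b, that can share reads. The list was uneven. Irf7, the factor that amplifies interferon alpha genes, had a log2 ratio of 1.08 (336 and 713 CPM), whereas Ifitm3, which blocks viral entry, had 0.57 (3187 and 4735 CPM), and the signal factor Irf9 had 0.295. The 9 genes within 2-fold were all above 0. Without a minimum of Tyrobp and Fcer1g, chosen as an alternative after seeing the data, the median was 1.35.

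Guanylate-binding proteins and immunity GTPases, which attack membranes of intracellular microbes, were measured for 14 of 15 genes, 10 of them higher and none lower (median 1.22, 1.39 relative to all genes). Their sum was 682 and 1709 CPM, 2.50-fold. Gbp5 stood at 31.2 CPM in Untreated and 479 in MSA-2 (3.94, 95% interval 3.41 to 4.53) and Iigp1 at 49.4 CPM in Untreated and 206 in MSA-2 (2.06). Gbp2, the most abundant of them in Untreated, stood at 269.6 CPM in Untreated and 293 in MSA-2 (0.12).

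**Figure D3:**
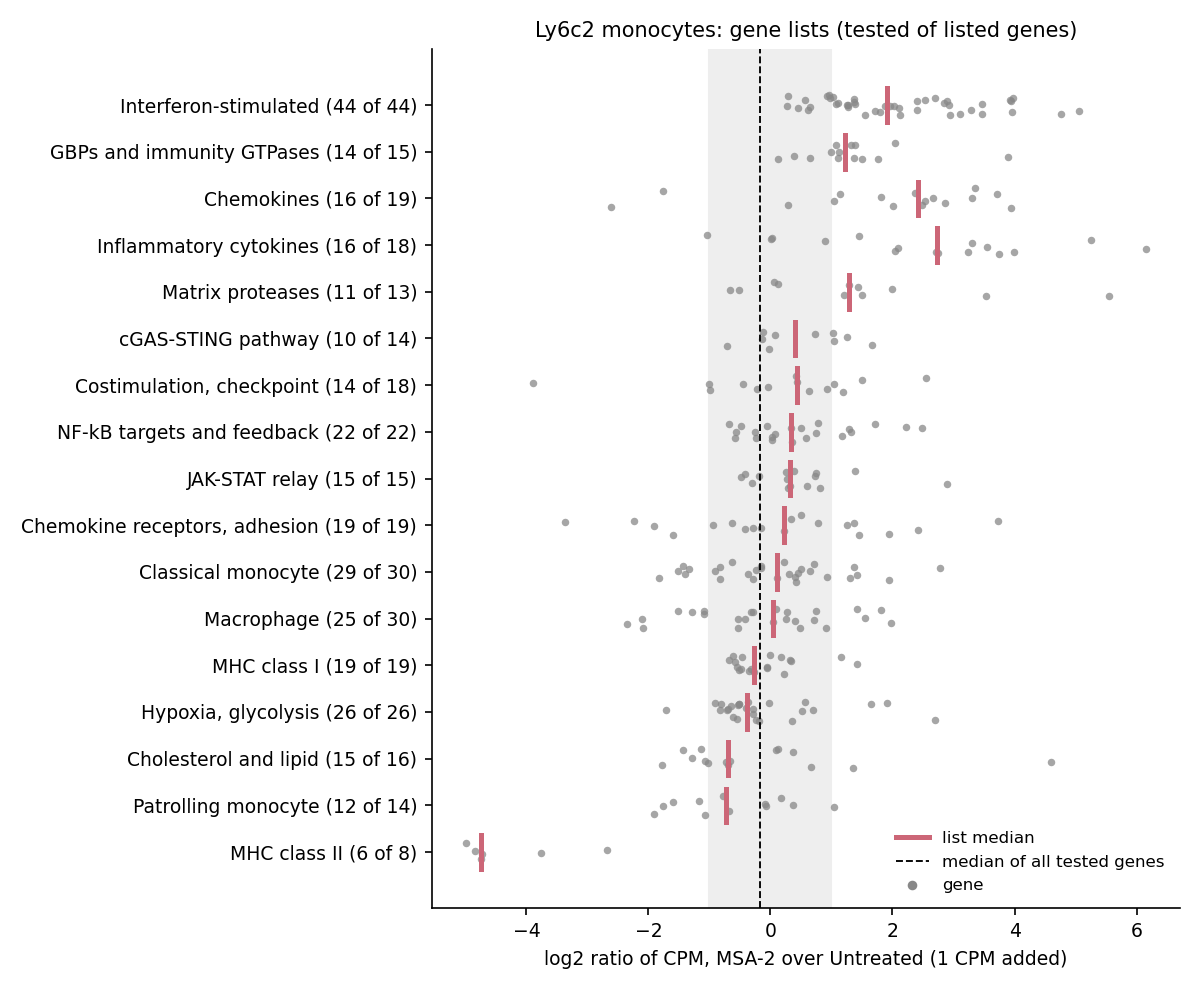
Log2 ratio of CPM (1 CPM added), MSA-2 over Untreated, in Ly6c2 monocytes, for the tested genes of each list (grey points) with the list median (red bar), the median of all tested genes (dashed line, −0.17) and the range within 2-fold (grey band). Cytokine, chemokine and interferon-stimulated lists have medians of 2.73, 2.43 and 1.92, and the MHC class II list has −4.74.

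Components of the STING pathway itself lay closer to the all-gene median than interferon-stimulated genes did. Of 14 genes 10 were tested, 4 were higher and none lower, and the median was 0.40, while Trex1 had no UMI in the members of either library. Cgas, the DNA sensor, stood at 10.7 CPM in Untreated and 27.1 in MSA-2 (1.33). Tmem173, the gene for STING, stood at 39.7 CPM in Untreated and 23.9 in MSA-2 (log2 ratio −0.74, 95% interval −1.43 to −0.04), which did not reach 2-fold. The kinases Tbk1 and Ikbke stood at 76.3 and 159 CPM (1.06) and 9.67 and 32.9 CPM (1.77), and the adaptor Myd88 at 29.01 and 59.99 CPM (1.05). Irf3, the factor that TBK1 phosphorylates, had a log2 ratio of 0.07, and Samhd1, which degrades nucleotides and was the most abundant gene of the list, −0.13.

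NF-kB targets and feedback genes were higher for 6 of 22 and lower for none (median 0.34), and their sum was 6450.1 and 12057 CPM. Nfkbia, the inhibitor that NF-kB induces against itself, stood at 1804 CPM in Untreated and 4423 in MSA-2 (1.29, 95% interval 1.22 to 1.37). Tnfaip3, the deubiquitinase A20, stood at 194 CPM in Untreated and 908 in MSA-2 (2.22), Nfkbiz at 169 and 554 CPM (1.72), and Marcksl1 at 81.6 and 462 CPM (2.502). The NF-kB subunit Rel lay on the other side, at 353 and 235 CPM (−0.59). Of 15 JAK-STAT relay and feedback genes 2 were higher, Usp18, which limits interferon receptor signalling, at 40.8 and 309.6 CPM (2.92), and Stat2 at 73.1 and 192 CPM (1.396). The median of these 15 was 0.32, and Socs1 and Socs3, suppressors of cytokine signalling, had 0.76 and −0.49.

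Inflammatory cytokines were higher for 12 of 16 tested genes (of 18 listed) and lower for 1, with a median of 2.73, or 2.90 relative to all genes. Il6, with 4 and 582 UMIs, and Il27, with 4 and 312, met the UMI minimum through their UMIs in MSA-2. Genes that entered in this way could hardly be counted other than higher, so the count and the median are a description only. Il6 stood at 4.297 CPM in Untreated and 375 in MSA-2 (log2 ratio 6.45, 95% interval 5.08 to 8.33) and was in 1.06% and 40.6% of thinned members and 0.586% and 5.76% of thinned T cells. Tnf stood at 75.2 CPM in Untreated and 1022 in MSA-2 (3.76, 95% interval 3.42 to 4.13), in 9.52% and 68.1% of thinned members and 5.52% and 28.1% of T cells. Il27, a cytokine of the IL-12 family that acts on T cells, stood at 4.297 CPM in Untreated and 201 in MSA-2 (5.55, 95% interval 4.18 to 7.43), beside 0.308 and 4.05 CPM in T cells. Il1a, Il10 and Il15 stood at 22.6 and 276 CPM (3.61), 6.45 and 69.02 CPM (3.42) and 27.9 and 194 CPM (2.797). Genes that promote inflammation and genes that limit it, such as Il10 and Il1rn, the antagonist of the IL-1 receptor (112 and 462 CPM), were higher together.

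The exception was the most abundant gene of the list. Il1b stood at 3342 CPM in Untreated and 1629 in MSA-2 (−1.04, 95% interval −1.11 to −0.96), just past 2-fold lower and within 2-fold under TMM. The summed level of the list was 4147 and 5267 CPM although its median gene was far higher. Osm, a cytokine of the IL-6 family, stood at 281 and 283 CPM (0.01). Nos2, the inducible nitric oxide synthase, stood at 11.8 and 125 CPM (3.405), and Ptgs2, the cyclooxygenase of prostaglandin synthesis, at 172 and 321 CPM (0.902). Il12a had 0 and 2 UMIs and Il12b 2 and 1, so a difference in IL-12 was not detectable at this depth. The cytokine median lay between 1.92 and 2.93 under 22 alternatives.

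Chemokine ligands differed more in summed level than interferon-stimulated genes or cytokines did. Of 19 genes 16 were tested, 13 were higher and 2 lower, the median was 2.43 (2.59 relative to all genes), and the sum was 7399 and 51799 CPM, 7.001-fold, beside 5409 and 18025 CPM in T cells. Ccl4, which attracts T cells and monocytes, stood at 1516 CPM in Untreated and 19830 in MSA-2 (log2 ratio 3.71, 95% interval 3.63 to 3.79). With mitochondrial and ribosomal protein genes left out, Ccl4 was the most abundant transcript of the members in MSA-2. Its share of thinned cells was 48.7% and 97.8%, and 55.1% and 82.7% of T cells, which can make this chemokine themselves. Ccl3, a related chemokine, stood at 268 CPM in Untreated and 2638 in MSA-2 (3.302, 95% interval 3.12 to 3.49). Ccl5 stood at 661 CPM in Untreated and 6766 in MSA-2 (3.36), beside 1192 and 3357 CPM in T cells, which express it too.

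Ligands of neutrophils, T cells and monocytes were all among the higher genes. Cxcl2, which attracts neutrophils through CXCR2, stood at 1476 CPM in Untreated and 8252 in MSA-2 (2.48, 95% interval 2.403 to 2.56), Cxcl1 at 244 and 1423 CPM, and Cxcl3 at 26.9 and 426 CPM; Cxcl1 reached 1328 CPM in T cells of MSA-2, and Cxcl2 708 CPM. Cxcl10, a ligand of CXCR3 on T cells, stood at 1100.1 CPM in Untreated and 6962 in MSA-2 (2.66, 95% interval 2.57 to 2.76), beside 1530.4 and 4529 CPM in T cells. The CCR2 ligands Ccl2, Ccl7 and Ccl12 stood at 735 and 2963 CPM (2.01), 156 and 1136 CPM (2.87) and 60.2 and 315 CPM (2.39). The chemokines that were lower were Cxcl9, another ligand of CXCR3, at 303 CPM in Untreated and 89.02 in MSA-2 (−1.77, 95% interval −2.07 to −1.47), and Cxcl16, which is tethered to the membrane and binds CXCR6, at 408 CPM in Untreated and 65.8 in MSA-2 (−2.63, 95% interval −2.96 to −2.31). Both ligands of CXCR3 are interferon targets, and they lay on opposite sides. With no Tyrobp and Fcer1g minimum the chemokine median was 1.62.

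**Figure D4:**
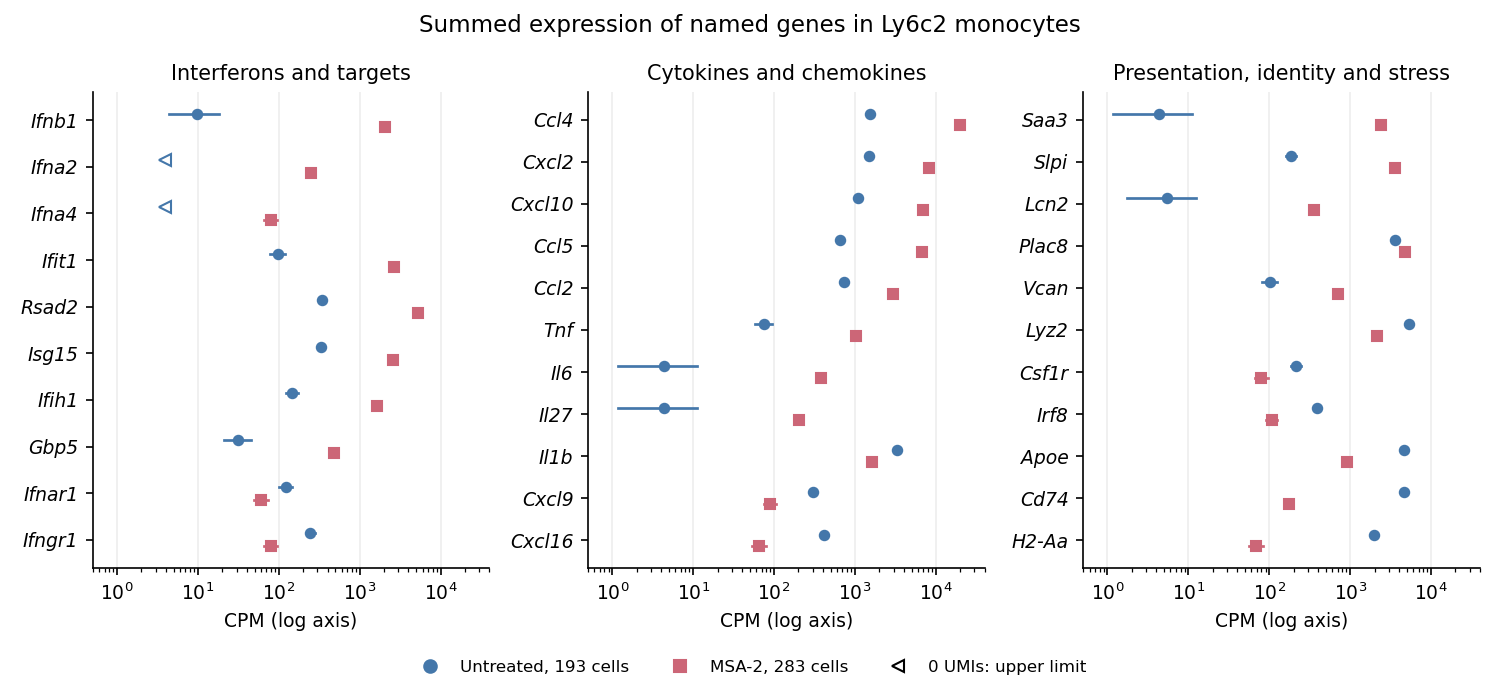
Summed level (CPM, log axis) of named genes in Ly6c2 monocytes of Untreated (circles) and MSA-2 (squares), with exact 95% Poisson intervals as lines and open triangles for the upper limit where no UMI was counted. Ifnb1 lies at 9.67 and 2051 CPM, Ccl4 at 1516 and 19830 CPM, and Cd74 at 4639.9 and 174 CPM.

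MHC class II genes, which present antigen to CD4 T cells, had the lowest median among the pathway lists. Of 8 genes 6 were tested and all 6 were past 2-fold lower, with a median of −4.74, or −4.57 relative to all genes, and −4.53 under TMM. The sum was 11865 and 468 CPM, 25.3-fold lower in MSA-2, beside 722 and 71.3 CPM in T cells. Of the 726 UMIs of this list in MSA-2, 491 (67.6%) were held by 4 members. Without these 4, left out after seeing the data, the sum in MSA-2 was 153 CPM, 77.4-fold lower, and the median was −6.54. Cd74, the invariant chain, stood at 4639.9 CPM in Untreated and 174 in MSA-2 (log2 ratio −4.74, 95% interval −4.92 to −4.56), and H2-Aa, H2-Ab1 and H2-Eb1, the chains of the surface molecules, at 1995 and 68.4 CPM (−4.87), 2228 and 81.9 CPM (−4.77) and 2333 and 72.2 CPM (−5.01). H2-DMa and H2-DMb1, which load peptides, stood at 304 and 46.4 CPM (−2.71) and 335 and 23.9 CPM (−3.81). Ciita, the master factor of this gene family, had 17 UMIs and 0, which allows up to 2.38 CPM in MSA-2.

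The members of Untreated were far from uniform in these genes. After thinning, the quartiles of the list per cell were 2, 10 and 33 UMIs, with 13 of 189 cells at 0. In MSA-2 220 of 276 cells (79.7%) were at 0 and the highest held 45, with 4 cells between 24 and 45 and no other above 3. In T cells the median was 1 and 0. Most members of MSA-2 were thus without these transcripts at that depth. The size of the difference depended on which cells were counted. The median was −3.42 without members that held neutrophil UMIs, −3.76 with Ccr2 required, −6.54 when the rule was applied after thinning and −6.73 without members that held markers of other cell types, and it lay below 0 in all 23 alternatives.

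MHC class I presentation differed little. Of 19 genes 2 were higher and none lower (median −0.26, −0.09 relative to all genes), and the sum was 8837 and 7657 CPM. B2m, the shared light chain, stood at 2041 CPM in Untreated and 1956 in MSA-2 (−0.06), and H2-K1 at 2098 CPM in Untreated and 1649 in MSA-2 (−0.35). Nlrc5, which activates class I genes as Ciita does class II, was 1 of the 2, at 46.2 and 125 CPM (1.44). The other was H2-T24, with 7 and 28 UMIs. In the same cells the class II list lay far below the all-gene median and the class I list close to it.

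Costimulatory and inhibitory ligands were mixed, with 4 of 14 tested genes higher and 2 lower (median 0.43). Cd274, the gene for PD-L1 that engages PD-1 on T cells, stood at 347 CPM in Untreated and 657 in MSA-2 (0.92, 95% interval 0.74 to 1.11), which did not reach 2-fold without TMM scaling. Cd80 and Cd86, which engage CD28, stood at 47.3 and 135 CPM (1.51) and 345 and 536 CPM (0.64). Tnfsf9, the ligand of 4-1BB, and Lgals9, galectin-9, stood at 6.45 and 42.6 CPM (2.72) and 81.6 and 186 CPM (1.19). Cd83, which stabilises surface MHC class II, was lower with that family, at 226 CPM in Untreated and 14.2 in MSA-2 (−3.99, 95% interval −4.696 to −3.35). Ido1 had 0 and 2 UMIs, so a difference was not detectable at this depth.

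Classical monocyte genes outside the rule kept a list median near 0 but were split. Of 29 tested genes 5 were higher, 5 lower and 19 within 2-fold, with a median of 0.11, 0.32 under TMM and 0.01 with equal weight per cell; it was −0.78 with no Tyrobp and Fcer1g minimum and −0.09 without members with markers of other types, and below 0 in 4 of 22 alternatives. Among the higher genes were Vcan, a matrix proteoglycan, at 101 CPM in Untreated and 701 in MSA-2 (2.79, 95% interval 2.49 to 3.11), Hp, haptoglobin, at 161 and 418 CPM (1.38), Clec4e, the receptor Mincle, at 233 and 624 CPM (1.42), and Ifitm6 at 63.4 and 159 CPM (1.32). Lower were Lyz2 (−1.34), Csf1r, the receptor for the growth factor CSF1, at 214 CPM in Untreated and 79.98 in MSA-2 (−1.42, 95% interval −1.75 to −1.09), Irf8, a lineage factor, at 385 and 107 CPM (−1.84), Klf4, needed for monocyte formation, at 715 and 265 CPM (−1.43), and Fn1, fibronectin, at 637 and 223 CPM (−1.52). The median of the list thus had no direction, while single genes in it lay far apart. Its sum was lower, at 18953 and 16414 CPM, and the median thinned member held 33 and 26 UMIs of the list.

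Genes of Ly6c-low patrolling monocytes were lower for 5 of 12 tested genes and higher for 1 (median −0.73). Cx3cr1, the fractalkine receptor, stood at 73.1 CPM in Untreated and 18.7 in MSA-2 (−1.97, 95% interval −2.65 to −1.32), and Nr4a1, on which patrolling monocytes depend, at 217 and 135 CPM (−0.68). Of 12 genes tied to dendritic cells of monocyte origin 3 were tested and 2 were lower (median −1.86), with a sum of 259 and 112 CPM. Itgax, the integrin CD11c, had 21 and 2 UMIs (22.6 and 1.29 CPM). It met the UMI minimum through Untreated, so the count and the median of these 3 genes are a description only. Cd209a and Mgl2 had 15 UMIs each in Untreated and none in MSA-2.

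Macrophage genes had a median of 0.04 over 25 tested genes, 0.25 under TMM and −1.2e-05 with equal weight, so the median had no direction. Their sum was lower, 10137 and 6174 CPM, and Apoe, which carries lipid and was the most abundant gene of the list in Untreated, was lower at 4644 CPM in Untreated and 911 in MSA-2 (−2.35, 95% interval −2.44 to −2.26). Trem2, a lipid receptor of tumor macrophages, stood at 184 and 41.9 CPM (−2.13) and Aif1 at 450.1 and 105 CPM (−2.098). Spp1, osteopontin, was higher at 226 CPM in Untreated and 601 in MSA-2 (1.41, 95% interval 1.196 to 1.64), and without the members that carried T and NK cell UMIs its log2 ratio was 3.21. Pf4 and Mertk, a receptor for dying cells, stood at 20.4 and 74.2 CPM (1.86) and 10.7 and 45.2 CPM (2.07). In all, 7 genes of the list were lower and 4 higher.

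Of 19 chemokine receptor and adhesion genes 6 were higher and 4 lower (median 0.22). Itgax, which met the UMI minimum through Untreated, was among the lower genes. The formyl peptide receptors Fpr1 and Fpr2, which sense bacterial and mitochondrial peptides, stood at 5.37 CPM in Untreated and 83.9 in MSA-2 (3.96, 95% interval 2.71 to 5.61) and 12.9 CPM in Untreated and 73.5 in MSA-2 (2.51). Icam1 and Vcam1, adhesion molecules, stood at 34.4 and 83.9 CPM (1.29) and 36.5 and 101.9 CPM (1.48). Cxcr4, which retains cells in the marrow and in tissue, was lower at 97.8 CPM in Untreated and 19.996 in MSA-2 (−2.29, 95% interval −2.93 to −1.69), as was Itgal, a chain of LFA-1, at 66.6 and 21.3 CPM (−1.65). Among 12 Fc receptor and complement genes, C5ar1, the receptor for C5a, was higher at 99.9 CPM in Untreated and 390.2 in MSA-2 (1.97, 95% interval 1.65 to 2.297) and so was Cfb, complement factor B, at 102.1 and 233 CPM (1.19), while Fcgr2b, the inhibitory Fc receptor, was lower at 269.6 and 134 CPM (−1.01), though within 2-fold under TMM.

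The hypoxia and lipid lists had medians below 0. Of 26 hypoxia and glycolysis genes 3 were higher and 1 lower, with a median of −0.38, −0.21 relative to all genes. Vegfa, the vascular growth factor, was the lower gene, at 223 CPM in Untreated and 67.7 in MSA-2 (−1.72, 95% interval −2.07 to −1.38), and Hilpda, which blocks lipid droplet breakdown, was higher at 157 and 494 CPM (1.66). Gapdh and Ldha stood at 2747 and 2124 CPM (−0.37) and 671 and 439 CPM (−0.61). Of 15 tested cholesterol and lipid genes 6 were lower and 2 higher (median −0.69). Abcg1, which exports cholesterol, stood at 67.7 and 24.5 CPM (−1.47) and Idi1, an enzyme of cholesterol synthesis, had −1.88. Plin2, which coats lipid droplets, stood at 339 CPM in Untreated and 872 in MSA-2 (1.36, 95% interval 1.18 to 1.54), and Ch25h, the cholesterol 25-hydroxylase that interferon induces, had 0 and 36 UMIs, or 23.2 CPM in MSA-2. Ch25h met the UMI minimum through MSA-2 alone and could only be counted as higher. The count and the median of the cholesterol and lipid list are therefore a description only.

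Matrix proteases and their inhibitors were higher for 7 of 11 tested genes and lower for none (median 1.28), among them Timp1 at 56.9 and 155 CPM (1.45), Plau, urokinase, with 1.25, and the protease Adam8 with 1.52. Serpinb2 of this list, with 2 and 227 UMIs, met the UMI minimum through MSA-2, so the count and the median are a description only. Mmp8, also of this list, is a gene of neutrophils, as are Mmp9 and Lcn2. Iron genes were higher for 3 of 9 and lower for 1. Fth1, the ferritin heavy chain, stood at 21299 CPM in Untreated and 15847 in MSA-2 (−0.43), Hmox1 at 89.2 and 168 CPM (0.91), and Tfrc, the receptor that takes up iron, had −1.98. With mitochondrial and ribosomal protein genes left out, Fth1 was the most abundant transcript of the members in Untreated. Slc7a2, a transporter of amino acids, stood at 19.3 and 121 CPM (2.65).

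Cell death genes were higher for 6 of 25 tested genes and lower for none (median 0.24). Mlkl, the executor of necroptosis, stood at 22.6 CPM in Untreated and 110.3 in MSA-2 (2.29, 95% interval 1.63 to 3.02), and Pmaip1, Fas and Casp4 at 50.5 and 161 CPM (1.68), 19.3 and 59.3 CPM (1.62) and 59.1 and 150.3 CPM (1.35). None of 20 cycling genes was higher and 2 were lower, with Mki67 at 38.7 and 38.1 CPM (−0.02). Of 14 immediate-early genes none was higher and 4 were lower. Their median was −0.31, and 0.06 with equal weight per cell, so it had no stable sign; Fosb had −2.01 and Fos −0.01. Of 10 heat-shock genes 1, Hspa1a, was lower (−1.02, within 2-fold under TMM), which has a close copy in Hspa1b.

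Genes that reached 50 CPM in 1 library or both were ranked by the bound of their interval nearest to 0, without the genes of the rule. The 15 genes furthest to the higher side were Saa3, Ifnb1, Ifna2, Il6, Lcn2, Ifna16, G0s2, Ifit1, Cmpk2, Ifna4, Serpinb2, Il27, Trim30c, Slpi and Lrg1. Saa3, an acute-phase serum amyloid A, stood at 4.297 CPM in Untreated and 2419 in MSA-2 (log2 ratio 9.14, 95% interval 7.78 to 11.01). However, T cells had 5.95 and 1568 CPM of it, and its share of thinned cells was 1.06% and 65.9% in members and 0.586% and 30.2% in T cells, so Saa3 was present also in the cells that gauge free RNA. T cells of MSA-2 also held Lcn2 (5.37 and 359 CPM in members, beside 169 CPM), Serpinb2 (2.15 and 146 CPM, beside 168) and G0s2 (0 and 89.7 CPM, beside 68.9). Slpi, an inhibitor of leukocyte proteases, stood at 186 CPM in Untreated and 3600.0 in MSA-2 (4.28, 95% interval 4.06 to 4.503) beside 118 CPM, and Trim30c, of the tripartite motif family, at 12.9 and 407 CPM beside 29.98 CPM, and Lrg1, a secreted glycoprotein, at 1.07 and 90.95 CPM beside 12.2 CPM, so these 3 were higher in members than in T cells of that library. Of the 15, 14 had a promoter and 4 held the interferon motif (Saa3, Ifna2, Ifit1 and Ifna4).

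The 15 genes furthest to the lower side were H2-Eb1, H2-Aa, Cd74, H2-Ab1, Gzmc, Cd83, H2-DMb1, Ltb, Gzmd, Dapk1, Xcl1, H2-DMa, Cxcl16, Ighm and Gpr132. Of these, 6 were MHC class II genes. Gzmc, Gzmd and Xcl1 are made by cytotoxic lymphocytes, and Gzmc, at 1895 CPM in Untreated and 101 in MSA-2, stood at 20.5 and 0.704 CPM without the members that carried T and NK cell UMIs. Without the same members Gzmd stood at 1.21 and 4.93 CPM, Xcl1 at 1.21 and 0 CPM and Ltb at 6.03 and 1.41 CPM, so the place of these 3 among the 15 rested on few cells. Dapk1, a kinase of cell death and autophagy, stood at 85.9 CPM in Untreated and 7.095 in MSA-2 (−3.598, 95% interval −4.66 to −2.68), and Gpr132, a receptor for lactate and lipids on macrophages, at 274 CPM in Untreated and 43.2 in MSA-2 (−2.66, 95% interval −3.07 to −2.27).

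**Figure D5:**
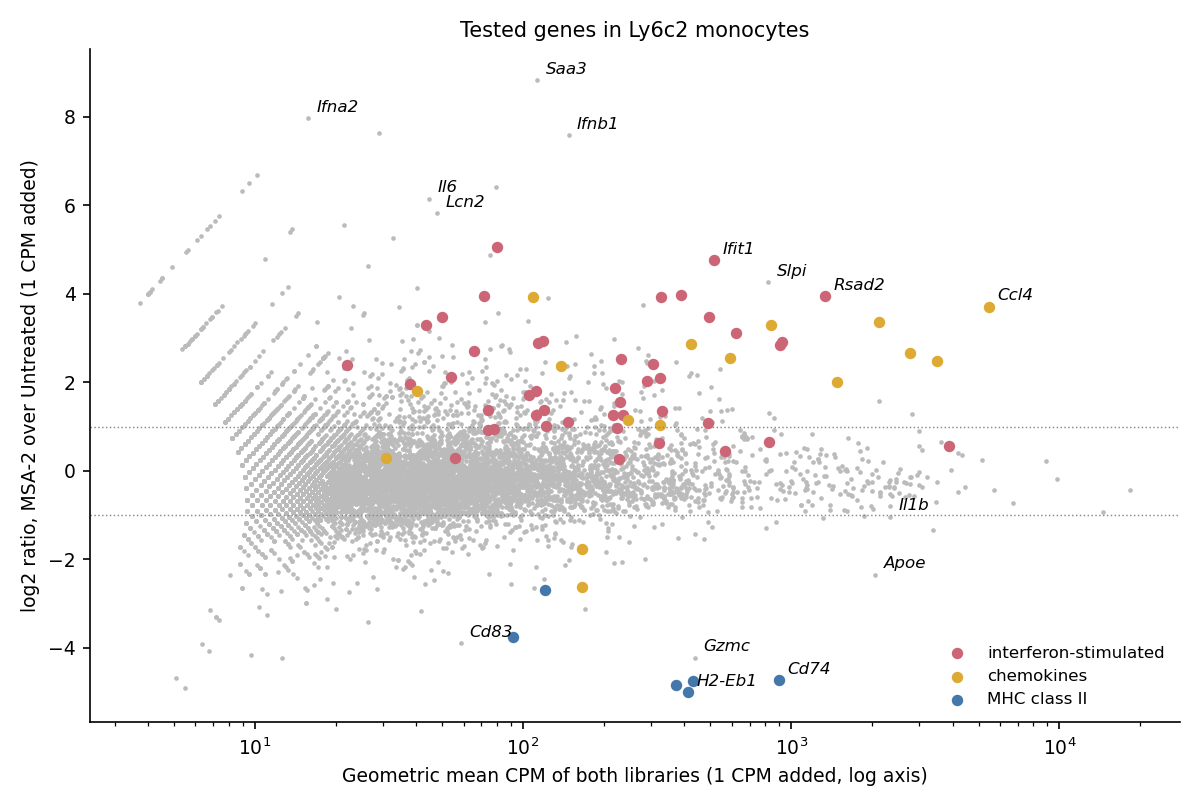
Log2 ratio of CPM (1 CPM added), MSA-2 over Untreated, against the geometric mean level of both libraries (CPM, log axis) for the 8591 genes tested in Ly6c2 monocytes, with interferon-stimulated, chemokine and MHC class II genes in color. MHC class II genes lie lowest at high level, with Cd74 at −4.73, and Saa3 and Ifna2 lie highest among the genes named, at 8.84 and 7.97.

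RNA of other cell types was measured in the members beside these results. Of 15 neutrophil genes 7 were tested, 4 were higher and none lower (median 3.53). G0s2, with 0 and 139 UMIs, met the UMI minimum through MSA-2 alone, so the count and the median are a description only. The sum of the whole list was 294 and 644 CPM, 2.19-fold, with Il1r2 the most abundant in both. T cells had 42.1 and 191 CPM. Any UMI of Retnlg, G0s2, Mmp8, Hdc or Cxcr2 was found in 10 of 193 members (5.18%) and 184 of 283 (65.0%, 59.2% to 70.6%), and after thinning in 2.65% and 34.8%. T cells showed 2.46% and 47.6%, and 1.17% and 11.5% after thinning. Neutrophils themselves were 99.6% positive. Within MSA-2, Retnlg stood at 52.9 CPM in members and 46.2 CPM in T cells, Mmp8 at 85.1 and 5.67, and Hdc at 79.3 and 12.2. S100a9 stood at 408 and 294 CPM, but the rule limits it in members. The source of the UMIs was not tested. Without the members that held such UMIs, the log2 ratio of Ifnb1 was 7.90. The medians were 1.94 for interferon-stimulated genes, 2.63 for cytokines, 2.42 for chemokines and −3.42 for MHC class II genes. The last lay outside the range of the list with all members, from the median lower to the median upper bound of its genes.

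T and NK cell genes were lower for 6 of 10 tested and higher for 1 (median −1.39), with a sum of 540 and 379.9 CPM and Gzmb and then Gzma as the most abundant gene. The 12 and 8 members picked by these same genes held 99.2% and 96.75% of the Gzmb UMIs and 94.1% and 91.2% of those of Il2rb, and without them Gzmb stood at 1.21 and 2.82 CPM, so no direction is given for this list in the other members. Without the 12 and 8 members the log2 ratio of Ifnb1 was 7.67 and the medians were 1.82, 2.52, 2.33 and −4.78 for interferon-stimulated, cytokine, chemokine and MHC class II genes. Of 8 B and plasma cell genes 2 were tested and 1 was lower (88.1 and 18.1 CPM, led by Ighm and then Igkc), and Ms4a1 had no UMI. Of 8 fibroblast genes 6 were tested and 1 was lower (972 and 979 CPM, led by Col3a1 and then Dcn), beside 1190 and 2737 CPM in T cells, which held more of them than the members. Of 8 tumor cell keratin and epithelial genes 7 had no UMI in the members of either library, Epcam and Krt8 among them, and the list had 1.07 and 0 CPM, from Krt7, beside 3.08 and 5.67 CPM in T cells.

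Dendritic and other lists were small. Of 10 plasmacytoid dendritic cell genes 5 were tested, none higher and 2 lower (911 and 989 CPM, led by Bst2). Lists of 6 genes each for cDC1, cDC2, mature dendritic cells, mast cells and basophils, and resident macrophages had 1, 0, 1, 0 and 1 genes tested. Their sums were 18.3 and 16.8 CPM, 60.2 and 12.3 CPM, 40.8 and 63.2 CPM, 5.37 and 3.23 CPM, and 15.04 and 24.5 CPM. Their most abundant genes in Untreated and MSA-2 were Cadm1 and Tlr3, Cd209a and Zbtb46, Fscn1 in both, Gata2 and Cpa3, and Mrc1 in both. Of 7 endothelial genes 1 was tested and was lower (40.8 and 21.9 CPM, led by Pecam1). Markers without a UMI were Snx22 (cDC1), Nudt17 (mature dendritic cells), Ms4a2 and Prss34 (mast cells and basophils), and Lyve1 and Timd4 (resident macrophages). The part of the RNA of these other cell types in the results was not tested. Scrublet called 730 barcodes (5.07%) and 713 (4.88%) as doublets, among them 4 and 18 members.

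Members of MSA-2 also differed among themselves. In thinned cells with 0, 1 to 2 and at least 3 Ifnb1 UMIs (62, 73 and 141 cells), the mean of the interferon-stimulated list was 51.3, 63.5 and 66.55 UMIs. Chemokine UMIs averaged 79.0, 83.2 and 99.9, with Ccl4 at 23.8, 35.8 and 45.0 and Tnf at 1.07, 1.95 and 2.43. Isg15 (4.65, 4.43 and 4.603) and the cytokine list (8.903, 10.05 and 9.78) did not increase in the same order. Cells without an Ifnb1 UMI after thinning thus carried interferon-stimulated transcripts too, at a lower mean. Before thinning 246 of 283 members held an Ifnb1 UMI, so some of the 62 cells had Ifnb1 that thinning removed. The cells of these groups were all at the same 1500 UMIs, and all came from 1 library.

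Genes with a mean of at least 0.1 UMIs in thinned members (2585 and 2290 genes) were ranked by the variance over the mean. The transcripts that varied most from cell to cell were partly different in the 2 libraries. In Untreated they were Gzmc (38.6, with 93.1% of cells at 0), Gzmd, Ccl4 (17.6), Fth1, Cxcl2 (13.6), Apoe (12.1) and Cd74 (8.26), with Ctla2a, Il1b and H2-Eb1 after them. In MSA-2 they were Ccl5 (24.01), Gzma (23.6, with 97.5% at 0), Fth1, Cxcl2 (17.0), Slpi (13.5), Saa3 (11.4) and Ccl4 (10.6), with H2-Aa, Cd74 and Cxcl3 after them. Ccl4, Cxcl2, Fth1 and Cd74 were in both sets of 10 genes, and Gzmc, Gzmd and Ctla2a of Untreated and Gzma, H2-Aa and Cd74 of MSA-2 were each at 0 in 91.7% or more of cells. Most MHC class II UMIs of MSA-2 were those of the 4 members named above.

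In macrophages with C1q of the same libraries the main lists lay on the same side of 0 as in the members. Their medians were 1.53 for interferon-stimulated genes, 1.49 for cytokines, 0.91 for chemokines and −2.67 for MHC class II. The members' medians of 1.92, 2.73, 2.43 and −4.74 were further from 0 in each of these lists. The difference between these cell types was not tested. Per thinned cell, C1q macrophages had a median of 15 and 48 interferon-stimulated UMIs, 29 and 65 chemokine UMIs and 31 and 1 MHC class II UMIs, against 13 and 64, 8 and 84.5, and 10 and 0 in the members. In Untreated the members thus had fewer chemokine and class II transcripts than the macrophages, and in MSA-2 they held more chemokine transcripts.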

How the data were processed

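Tumor cells of 1 pooled library per condition were measured as UMI counts per gene, which the authors made with Cell Ranger 7.0.0 against mm10 and filtered with Seurat 4.3.0, per the labels. The deposited matrices hold counts for 32285 features in 14386 (Untreated) and 14617 (MSA-2) barcodes. Software for reading and summing them was numpy 2.4.6, pandas 2.3.3 and scipy 1.17.1, run under Python 3.11.15. Members were picked per cell by the rule given in the report, and their UMIs were summed per library. Members and gene lists were chosen with earlier results of these data known. Genes with at least 20 UMIs in both sums together were compared as log2 ratios of CPM, for lists and gene counts with 1 CPM added, and 2-fold was the limit for higher or lower. Intervals are exact binomial or Poisson at 95%. For a list, a range was taken from the median lower bound of its genes to their median upper bound. It is not an interval of the list median. With 1 library per condition no test was made. For per-cell shares each cell was thinned to 1500 UMIs (seed 11). Doublets were called with Scrublet in scanpy 1.11.5 (0.8% per 1000 barcodes). TMM factors came from edgeR 4.0.16 in R 4.3.3, and figures from matplotlib 3.10.9. The named genes are those of the lists and the 15 furthest from 0 each way. Alternatives covered cell filters, doublets, most limits of the rule, thinning, members with RNA of other types, denominators, scaling, the added CPM and the UMI minimum; 5 of them were chosen after seeing the data. A planned group of tumor cells to gauge free RNA held 0 cells, so T cells were used. The code was tested on simulated data.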

Additional observations from a re-analysis of the deposited data

How the results depend on the processing

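Across 24 settings 231 values were computed. Of these, 185 lay within the interval of the main value (or within 1.5 times a main count) and 40 moved outside it. The other 6, clear of 0 under the rule as stated, took the other direction. For lists, the range from the median lower to the median upper bound of the genes stood in place of an interval. Shares are log2 ratios over kept, then myeloid cells (0.56 and 0.53 under the rule as stated), and lists are medians. These 6 were shares: −0.33 and −0.36 with Ccr2 in place of the trio, −0.27 and −0.29 without members with markers of other types, and −0.88 and −0.91 without members with neutrophil UMIs. With Ccr2, MHC class II was −3.76, chemokines 2.10 and classical genes 0.44; without markers of other types, MHC class II was −6.73, classical genes −0.094 and higher genes 408; without neutrophil UMIs, MHC class II was −3.42. With C1q under 0.05% the shares were 0.93 and 0.90, MHC class II −5.05 and chemokines 2.12. Shares were 0.895 and 0.87 with no S100a8 and S100a9 limit, 0.84 per kept cell that was not a neutrophil, and 1.48 per myeloid cell with 1000 genes and 10% mitochondrial UMIs. With no Tyrobp and Fcer1g minimum the share of kept cells was 0.86, MHC class II −5.44, chemokines 1.62, interferon-stimulated genes 1.35 and classical genes −0.78. With the rule applied after thinning the myeloid share was 0.99, Ifnb1 9.71 and MHC class II −6.54. Ifnb1 was 9.47 with 3 Ly6c2 UMIs, and chemokines were 2.07 with 1 and 2.14 with no Ly6c2 condition and at least 2 UMIs of the trio. Without the 4 MSA-2 members with most MHC class II UMIs that list was −6.54. Without Scrublet doublets MHC class II was −4.48, classical genes 0.32 and lower genes 1185; under TMM they were −4.53, 0.32 and 458. With 5 UMIs MHC class II was −4.50, with 1423 genes higher and 1316 lower; with 100 UMIs 395 and 221 genes were higher and lower, and with 10 CPM added 525 and 320. The cause of these differences was not tested. MHC class II lay below 0 in 23 of 23 alternatives, and Ifnb1, interferon-stimulated genes, cytokines and chemokines above 0 in all of theirs. The macrophage and classical lists, near 0 under the rule as stated, lay below 0 in 13 and 4 of 22. The split by sex-linked genes could not give a value, since 0 and 1 members held Xist alone. No paired analysis was possible because each group has 1 library, and both carry replicate number 1. Depth limits genes under 20 UMIs in both sums together.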
